A study of Homo sapiens with 8 samples.

Results

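The genes described here were 8 protocadherins that lie outside the large PCDHA, PCDHB and PCDHG gene arrays, namely PCDH1, PCDH7, PCDH8, PCDH9, PCDH10, PCDH17, PCDH18 and PCDH19. They were taken by symbol from gene count tables that listed 27317 symbols, and all 8 passed the filter on low counts, as did 17268 symbols in all. The genes had been chosen from their levels in these same libraries, so their differences between groups are given as descriptions, with no p-value and with nothing read from how many moved. RNA sequencing had been done on MEL1, a human embryonic stem cell line. The groups were TCDD at D2, DMSO at D2, TCDD at D1 and DMSO at D1, with 2 libraries each. TCDD, a dioxin and ligand of the aryl hydrocarbon receptor (AHR), was given at the stem cell stage at 2 nM in DMSO, and the controls received the same volume of DMSO. D1 cells were collected right before differentiation, and D2 cells 2 days after cardiac differentiation was begun with 5 µM CHIR99021, a GSK3 inhibitor, which all D2 groups received. All cells carried the same line's genotype, and the length of the TCDD exposure is not given in the sources used here.

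Protocadherins are cadherins with a single membrane span whose outer domains bind the same protein on a neighbouring cell. The non-clustered members fall mainly into the delta-1 subgroup, here PCDH1, PCDH7 and PCDH9, and the delta-2 subgroup, here PCDH8, PCDH10, PCDH17, PCDH18 and PCDH19, which differ in their number of outer cadherin repeats and in the motifs of their cytoplasmic tails. Several delta-2 tails bind the WAVE regulatory complex, an activator of actin branching. In Xenopus and zebrafish the PCDH8 relative PAPC (paraxial protocadherin) is known for its part in the cell movements of gastrulation, when mesoderm forms.

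Libraries held 34873055 to 43770420 counts, so 1 count was worth 0.0233 to 0.0275 CPM, the unit in which levels are given (counts scaled to a common library size by edgeR). The AHR target CYP1A1, a cytochrome P450, had a log2 fold change with TCDD of 2.56 ± 0.45 at D2 and 6.82 ± 0.21 at D1 (edgeR adjusted p = 0.0217 and 1.48e-06). Stem cell markers were present in every group, with a summed level over 8 genes of 5920 to 6060 CPM in TCDD D2, 5670 to 5720 CPM in DMSO D2, 7000 to 7200 CPM in TCDD D1 and 7290 to 7790 CPM in DMSO D1. Nothing in the labels says that replicates were separate cultures, so spreads and tests cover the variation between these libraries, which may be technical. In such bulk samples, fewer cells of a type and less RNA per cell cannot be told apart.

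PCDH8, the human relative of PAPC, which at rat synapses promotes the uptake of N-cadherin from the surface, was higher with TCDD at both times. Its level was 7.98 and 9.22 CPM in the TCDD D2 libraries, 1.39 and 1.90 CPM in DMSO D2, 3.92 and 2.84 CPM in TCDD D1 and 0.837 and 0.890 CPM in DMSO D1. No 2 groups overlapped, and both TCDD groups stood above both DMSO groups. The counts behind these levels were 336 and 335 in TCDD D2, 51 and 78 in DMSO D2, 168 and 103 in TCDD D1, and 33 and 35 in DMSO D1. At D2 the TCDD mean was 8.60 ± 0.878 CPM against a DMSO mean of 1.65 ± 0.358 CPM (SD, n = 2 each), which is 5.17-fold higher, or 2.37 ± 0.16 (SE) on the log2 scale. At D1 the TCDD mean was 3.38 ± 0.767 CPM against a DMSO mean of 0.863 ± 0.0374 CPM (SD, n = 2 each), which is 3.94-fold higher, or 1.98 ± 0.22 on the log2 scale. The TCDD effect at D2 exceeded that at D1 by 0.39 ± 0.30 on the log2 scale, which did not pass the threshold, an adjusted p of 0.05 over all genes tested. For the 8 genes this threshold only sorts the values, since the same libraries chose them. With 2 libraries a group, a lack of overlap here or below says little by itself, and its share over all genes was not computed. PCDH1 too had no overlap between TCDD and DMSO at D2, at a log2 fold change of -0.06 ± 0.08.

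**Figure D1:**
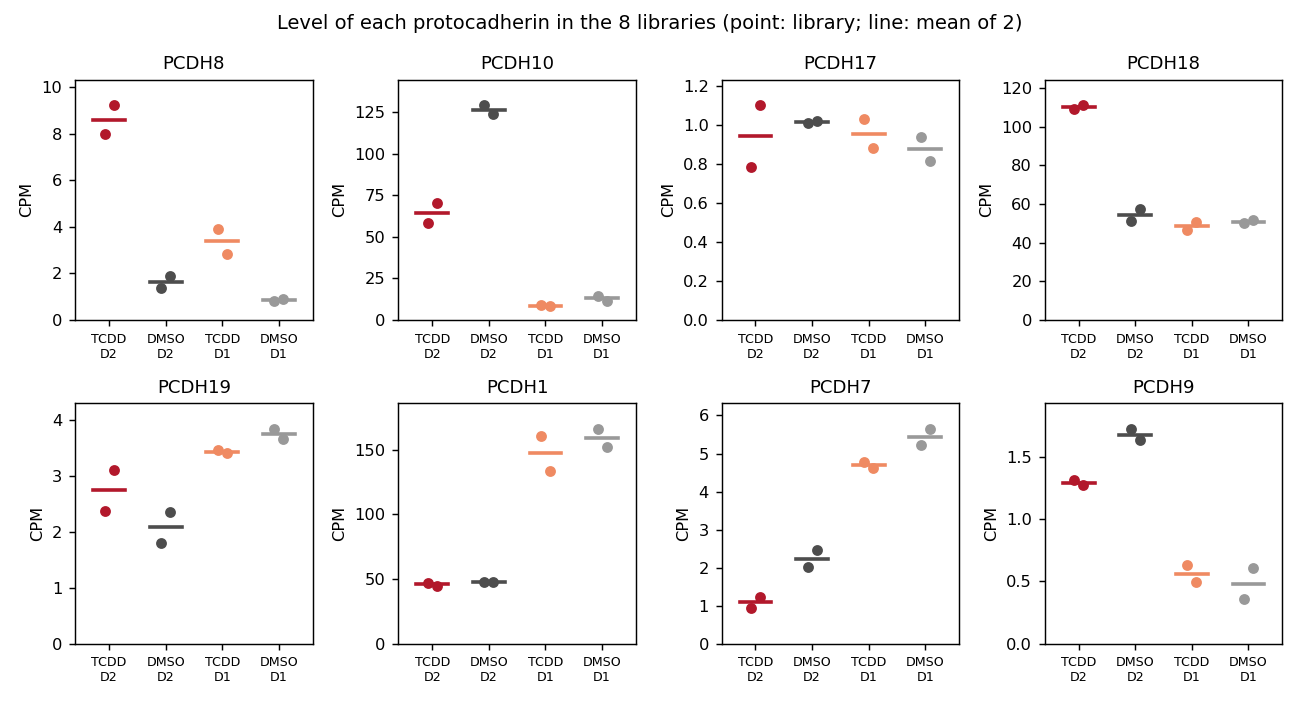
Level of each of the 8 protocadherins in CPM on linear axes from 0, with 1 point per library and a line at the mean of the 2 libraries of each group, for TCDD D2, DMSO D2, TCDD D1 and DMSO D1 in that order. The 4 groups of PCDH8 do not overlap, with the TCDD D2 libraries at 7.98 and 9.22 CPM, and PCDH18 stands apart in TCDD D2 alone, at 109 and 111 CPM.

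PCDH18, a delta-2 protocadherin whose zebrafish relative binds the Nap1 subunit of the WAVE complex in motor neurons, was higher with TCDD at D2 and not at D1. It had 109 and 111 CPM in TCDD D2, 51.2 and 57.5 CPM in DMSO D2, 46.5 and 50.6 CPM in TCDD D1, and 50.0 and 51.9 CPM in DMSO D1. The TCDD D2 libraries lay above the other 6, while DMSO D2 overlapped DMSO D1, and DMSO D1 overlapped TCDD D1. Its D2 means of 110 ± 1.78 CPM (TCDD) and 54.3 ± 4.48 CPM (DMSO), each over 2 libraries with the SD, were 2.02-fold apart, a log2 fold change of 1.01 ± 0.06. The same contrast at D1 gave -0.07 ± 0.06. The difference between the 2 TCDD effects was 1.08 ± 0.08 on the log2 scale. Of the 8 genes, PCDH18 was the 1 past the threshold in that difference, in the higher direction, in which 0.527% of all genes were called, with 0.295% called lower. Without composition scaling the calls over all genes in this difference were 75 higher and 65 lower, in place of 91 and 51.

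PCDH10, known as OL-protocadherin, which binds the WAVE complex through Nap1 and is needed for axon growth in the mouse striatum, was lower with TCDD at D2. Its level was 58.4 and 70.6 CPM in TCDD D2, 129 and 124 CPM in DMSO D2, 9.31 and 8.15 CPM in TCDD D1, and 14.6 and 11.5 CPM in DMSO D1. Both times showed the TCDD libraries below the DMSO libraries with no overlap. The D2 means were 64.5 ± 8.67 CPM in TCDD and 127 ± 2.95 CPM in DMSO libraries (SD, n = 2 each), and the log2 fold change was -0.97 ± 0.10. The D1 means were 8.73 ± 0.820 CPM in TCDD and 13.0 ± 2.22 CPM in DMSO libraries, and the log2 fold change of -0.57 ± 0.15 did not pass the threshold.

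PCDH7, a delta-1 protocadherin that binds protein phosphatase 1, also was lower with TCDD at D2. It had 0.950 and 1.24 CPM in TCDD D2, 2.02 and 2.46 CPM in DMSO D2, 4.78 and 4.62 CPM in TCDD D1, and 5.22 and 5.64 CPM in DMSO D1. No groups overlapped, and the TCDD D2 libraries were the lowest, on 40 and 45 counts against 74 and 101 in DMSO D2. The log2 fold change with TCDD was -1.05 ± 0.19 at D2 and -0.21 ± 0.13 at D1, past the threshold at D2. That D2 call was lost without TCDD D2 replicate 1 (-0.86) and without DMSO D2 replicate 2 (-0.90).

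PCDH1, a protocadherin of epithelial cell contacts, PCDH9, which shapes the sensory cortex in mice, PCDH17, which recruits the WAVE complex in mouse axons, and PCDH19, an epilepsy gene whose zebrafish protein pairs with N-cadherin, did not pass the threshold for TCDD at either time. At D2 the log2 fold change was -0.06 ± 0.08 for PCDH1, -0.38 ± 0.21 for PCDH9, -0.12 ± 0.24 for PCDH17 and 0.38 ± 0.17 for PCDH19. At D1 it was -0.11 ± 0.07 for PCDH1, 0.23 ± 0.32 for PCDH9, 0.13 ± 0.25 for PCDH17 and -0.12 ± 0.15 for PCDH19. PCDH9 and PCDH17 rested on 14 to 67 and 32 to 44 counts per library, so a small change in them was not detectable at this depth. With TCDD at D2, 2 of the 8 genes were thus past the threshold higher and 2 lower, where 1.40% of all genes were higher and 1.50% lower. With TCDD at D1, 1 was higher and none lower by edgeR, where 0.735% of all genes were higher and 0.405% lower. The median log2 fold change of the 8 genes was -0.09 at both times, beside 0.00 over all genes tested. The count at D1 was 2 without TCDD D2 replicate 1, TCDD D2 replicate 2 or DMSO D1 replicate 2, each time by PCDH10 (-0.57, -0.57 and -0.74), and 2 without TCDD D1 replicate 1 by PCDH1 (-0.25).

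**Figure D2:**
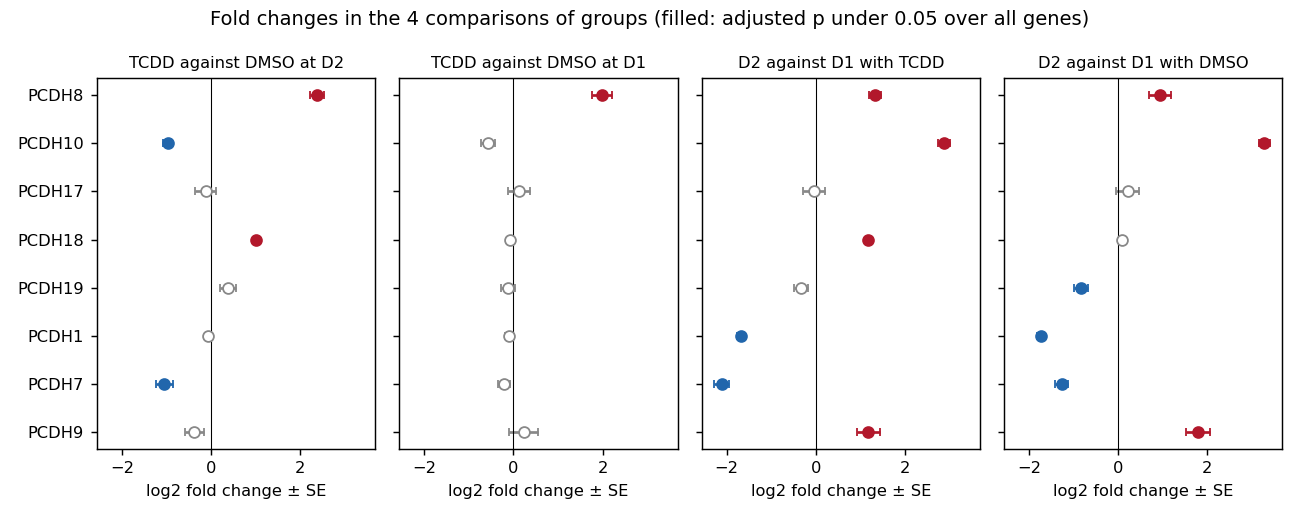
Log2 fold change with its standard error (bars) of each gene in the 4 comparisons of groups, with positive values higher in the group named first. Filled points are past an adjusted p of 0.05 over all genes tested, red where higher and blue where lower, and open points are not. PCDH8 is filled and to the right of 0 in all 4 panels, and PCDH10 lies left of 0 for TCDD and far right of 0 for D2 against D1.

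For 7 of the 8 genes, all but PCDH10, RefSeq gave the sequence around the gene's start, from 250 bases before it to 50 after, on GRCh38.p14, whereas the counts had been made on hg19. The 3 shown belong to genes past the threshold with TCDD at D2, and they let a reader see which hold the core GCGTG of the element that AHR binds with its partner ARNT, here in capitals, or CACGC where it lies on the other strand. The core CTTTGA of TCF/LEF factors, which act in the Wnt pathway that a GSK3 inhibitor switches on, is in capitals too. Both strands were searched, and the letters of the 2 cores did not overlap in these windows. Each line runs in the direction of transcription, with PCDH8 at chr13:52848591-52848890 (minus strand), PCDH18 at chr4:137532445-137532744 (minus strand) and PCDH7 at chr4:30720119-30720418 (plus strand).
PCDH8: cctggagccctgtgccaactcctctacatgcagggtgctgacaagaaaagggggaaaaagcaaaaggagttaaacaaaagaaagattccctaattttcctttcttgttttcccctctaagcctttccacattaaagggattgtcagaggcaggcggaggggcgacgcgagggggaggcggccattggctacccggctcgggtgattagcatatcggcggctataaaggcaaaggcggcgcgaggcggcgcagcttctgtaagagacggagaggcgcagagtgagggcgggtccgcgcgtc
PCDH18: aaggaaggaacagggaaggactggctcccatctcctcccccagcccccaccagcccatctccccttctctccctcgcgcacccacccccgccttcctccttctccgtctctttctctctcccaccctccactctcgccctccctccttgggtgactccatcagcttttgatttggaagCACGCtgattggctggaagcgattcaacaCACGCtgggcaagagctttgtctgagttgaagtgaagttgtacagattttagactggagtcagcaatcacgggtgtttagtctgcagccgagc
PCDH7: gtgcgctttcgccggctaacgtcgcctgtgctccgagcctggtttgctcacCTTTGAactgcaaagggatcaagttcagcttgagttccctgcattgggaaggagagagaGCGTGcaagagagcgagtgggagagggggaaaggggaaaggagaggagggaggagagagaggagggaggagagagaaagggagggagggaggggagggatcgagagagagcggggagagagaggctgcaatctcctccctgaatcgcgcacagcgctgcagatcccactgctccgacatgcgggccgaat

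The PCDH8 window held no match to either core and so is all in lower case. PCDH18 had 2 matches to the AHR core, both on the strand opposite to transcription, with first bases 72 and 43 bases before the start (positions -72 and -43). PCDH7 had 1 AHR core at -140 and 1 TCF/LEF core at -199. Among the other 4 windows, PCDH9 had 1 AHR core at -44, and PCDH1, PCDH17 and PCDH19 had neither. Of 35116 promoters of the same length, 36.5% held at least 1 AHR core, 12.7% held 2 or more, and 12.9% held a TCF/LEF core. A match is a run of letters and not a shown binding site, and no match says only that these letters are not in this window.

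PCDH10 and PCDH18, which moved opposite ways with TCDD at D2, both lie on chromosome 4, with PABPC4L between them in RefSeq's order of protein-coding genes, an order that does not give their distance. PABPC4L, named for its likeness to poly(A)-binding proteins, averaged 14.3 CPM in TCDD D2 and 16.4 CPM in DMSO D2, or -0.20 ± 0.08 on the log2 scale (edgeR adjusted p = 0.224). On the far side of PCDH10, C4orf33 had -0.16 ± 0.10 (edgeR adjusted p = 0.503) and SCLT1 had -0.03 ± 0.06 (0.896). Beyond PCDH18, the cystine transporter gene SLC7A11 had -0.09 ± 0.15 (edgeR adjusted p = 0.868) and NOCT had -0.15 ± 0.08 (0.406). None of these 5 passed with TCDD at D2 or D1. On the lower-coordinate side of PCDH8 on chromosome 13, CNMD had 0.11 ± 0.06 at D2 (edgeR adjusted p = 0.380) and SUGT1 had 0.01 ± 0.05 (0.953), while PCDH8 itself had 2.37. On its other side the 2 nearest genes, OLFM4 and PRR20A, did not pass the filter on low counts, so no neighbour was compared there.

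**Figure D3:**
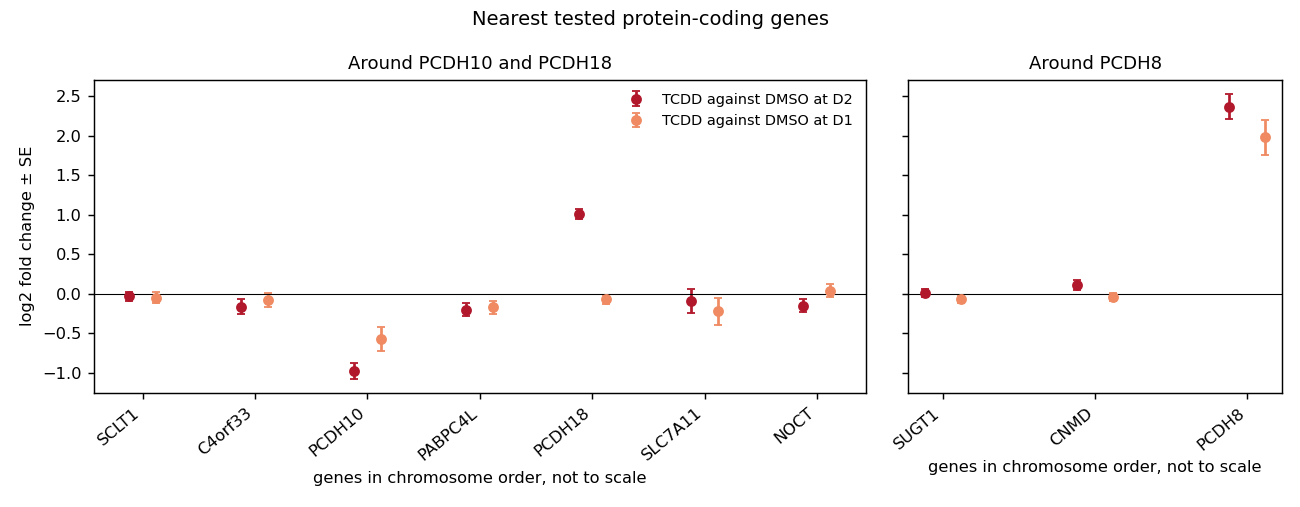
Log2 fold change with TCDD against DMSO at D2 (dark) and D1 (light), with standard errors, of tested protein-coding genes near PCDH10 and PCDH18 and near PCDH8, in chromosome order and not to scale. The genes shown beside PCDH8 lie on its lower-coordinate side only. At D2 PCDH10 lies at -0.97 and PCDH18 at 1.01, with PABPC4L between them at -0.20.

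Levels of different genes were compared per kb of exon, from the union of exons in GENCODE v29. PCDH18 averaged 16.4 CPM per kb in TCDD D2, 8.13 in DMSO D2, 7.26 in TCDD D1 and 7.62 in DMSO D1. PCDH10 averaged 6.35 CPM per kb in TCDD D2, 12.5 in DMSO D2, 0.859 in TCDD D1 and 1.28 in DMSO D1. The ratio of PCDH18 to PCDH10 per kb was thus 2.83 and 2.39 in the TCDD D2 libraries, 0.605 and 0.702 in DMSO D2, 7.59 and 9.44 in TCDD D1, and 5.21 and 6.88 in DMSO D1. DMSO D2 was the one group in which PCDH10 exceeded PCDH18. Their plain CPM sum, not scaled for exon length, was 167 and 182 in TCDD D2, and 180 and 182 in DMSO D2, which overlapped. Per kb, PCDH18 and PCDH10 had 16.2 and 5.75 in TCDD D2 replicate 1, and 16.6 and 6.95 in replicate 2. In DMSO D2 they had 7.65 and 12.7 in replicate 1, and 8.6 and 12.2 in replicate 2. Summed per kb, the pair was higher in both TCDD D2 libraries, so the overlap depends on the unit.

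PCDH1 was the most abundant of the 8 genes per kb at D1, with a mean share of their summed CPM per kb of 72.0% in TCDD D1 and 72.9% in DMSO D1. Its share at D2 was 23.8% with TCDD and 27.3% with DMSO. PCDH18 led in TCDD D2 with 50.2%, where DMSO D2 had 27.5%, TCDD D1 21.1% and DMSO D1 20.7%. PCDH10 led in DMSO D2 with 42.2%, where TCDD D2 had 19.4%, TCDD D1 2.48% and DMSO D1 3.46%. The leading gene therefore differed between TCDD D2, DMSO D2 and the D1 groups. The share of PCDH8 was 5.09% in TCDD D2, 1.08% in DMSO D2, 1.88% in TCDD D1 and 0.454% in DMSO D1, and PCDH7, PCDH9, PCDH17 and PCDH19 had mean shares of 0.0426% to 1.20%. The sum over the 8 genes was 32.0 to 33.5 CPM per kb in TCDD D2, 29.1 to 30.0 in DMSO D2, 32.5 to 36.8 in TCDD D1 and 35.8 to 38.1 in DMSO D1. PCDH9 has a long exon union of 30944 bases, which lowers its value per kb if most of its transcripts are shorter.

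**Figure D4:**
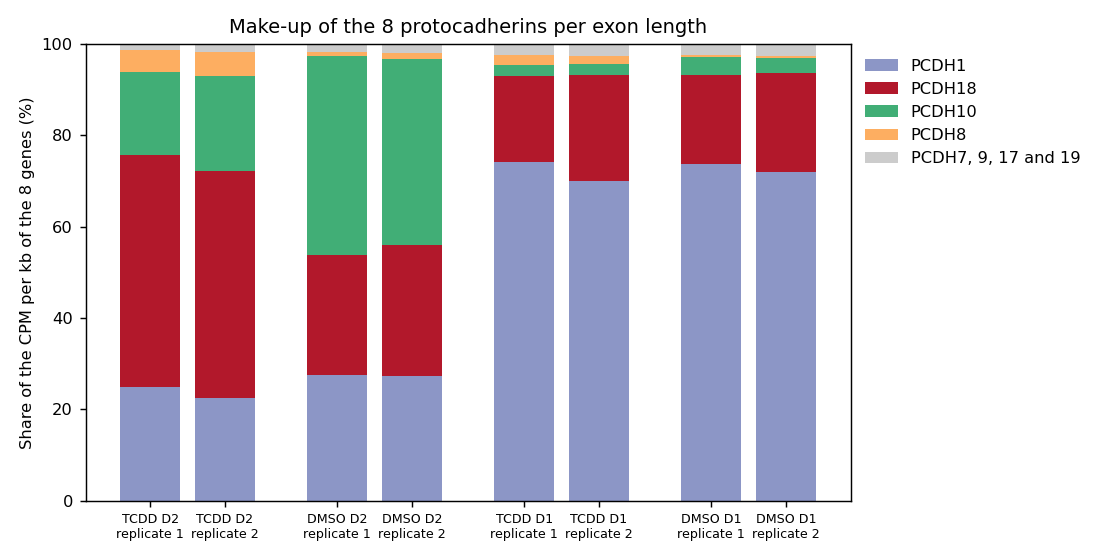
Share of each gene in the summed CPM per kb of exon of the 8 protocadherins, 1 stacked bar per library, with PCDH7, PCDH9, PCDH17 and PCDH19 summed in grey. PCDH1 fills most of each D1 bar (mean 72.0% with TCDD and 72.9% with DMSO), PCDH18 leads in TCDD D2 (50.2%) and PCDH10 in DMSO D2 (42.2%).

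Between D2 and D1, PCDH10 had the largest difference of the 8. Its log2 fold change at D2 against D1 was 2.88 ± 0.13 with TCDD and 3.28 ± 0.12 with DMSO. PCDH9 was higher at D2 as well, by 1.18 ± 0.26 with TCDD and 1.79 ± 0.26 with DMSO, from levels of 1.31 and 1.27 CPM in TCDD D2, 1.72 and 1.63 CPM in DMSO D2, 0.630 and 0.496 CPM in TCDD D1, and 0.355 and 0.610 CPM in DMSO D1. The D1 groups of PCDH9 overlapped, and all D2 libraries lay above all D1 libraries. PCDH8 had 1.33 ± 0.14 with TCDD and 0.94 ± 0.25 with DMSO, and the DMSO call was lost without DMSO D2 replicate 2 (0.69). PCDH18 differed between the days with TCDD, by 1.18 ± 0.06, and not past the threshold with DMSO, by 0.09 ± 0.06. Without DMSO D2 replicate 1 that DMSO value was 0.17 and past the threshold.

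Of the delta-1 genes, PCDH1 and PCDH7 were lower at D2, while PCDH9 was higher. PCDH1 had 47.1 and 44.6 CPM in TCDD D2, 47.4 and 48.0 CPM in DMSO D2, 161 and 134 CPM in TCDD D1, and 166 and 152 CPM in DMSO D1. Its 4 D2 libraries lay far below the 4 D1 libraries, and the D1 groups overlapped. The log2 fold change of PCDH1 at D2 against D1 was -1.69 ± 0.08 with TCDD and -1.74 ± 0.08 with DMSO. PCDH7 had -2.11 ± 0.17 with TCDD and -1.27 ± 0.14 with DMSO, and the difference between these of -0.84 ± 0.23 did not pass the threshold.

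PCDH19 had 2.37 and 3.11 CPM in TCDD D2, 1.80 and 2.36 CPM in DMSO D2, 3.45 and 3.41 CPM in TCDD D1, and 3.83 and 3.66 CPM in DMSO D1. The groups were in the order DMSO D1, TCDD D1, TCDD D2 and DMSO D2 with no overlap, though the D2 groups missed each other by little. Its D2 against D1 value was -0.84 ± 0.16 with DMSO, past the threshold, and -0.33 ± 0.16 with TCDD, not past it. The TCDD value became -0.55 and passed without TCDD D2 replicate 2. PCDH17 was flat, with 0.783 and 1.10 CPM in TCDD D2, 1.01 and 1.02 CPM in DMSO D2, 1.03 and 0.881 CPM in TCDD D1, and 0.938 and 0.813 CPM in DMSO D1. Neighbours in its order of levels all overlapped, and its D2 against D1 value was -0.04 ± 0.25 with TCDD and 0.21 ± 0.25 with DMSO.

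With TCDD, 4 of the 8 genes were past the threshold higher at D2 than at D1 and 2 lower, where 33.1% of all genes were higher and 32.2% lower. With DMSO, 3 were higher and 3 lower, where 32.5% of all genes were higher and 30.7% lower. Without composition scaling the calls over all genes were 4183 higher and 6992 lower with TCDD, in place of 5710 and 5561, and 4377 higher and 6425 lower with DMSO, in place of 5613 and 5299, and the median over all genes with TCDD was then -0.11. PCDH19 passed with TCDD under that setting, at -0.44. The median of the 8 genes was 0.57 with TCDD and 0.15 with DMSO, beside 0.00 and 0.01 over all genes. These 2 comparisons use the same libraries as the TCDD comparisons of each day, so their values are set side by side and not tested against each other.

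Marker lists for the cell types the cultures could hold were read beside these values. Primitive streak genes mark the cells that give rise to mesoderm and endoderm. Of 8 primitive streak markers, 5 were lower with TCDD at D2 by edgeR, and their summed level was 746 to 839 CPM in TCDD D2, 1130 CPM in both DMSO D2 libraries, 15.0 to 16.9 CPM in TCDD D1 and 18.5 to 20.6 CPM in DMSO D1, with EVX1 at 0 at D1. MIXL1, a streak homeobox gene, had -1.21 ± 0.06 at D2 (edgeR adjusted p = 2.13e-10). Among definitive endoderm markers, 1 of 4 tested was lower at D2 by edgeR, CER1 (-1.10 ± 0.13, edgeR adjusted p = 0.000924), and DESeq2 called none of the 4. CER1, a secreted antagonist of Nodal and BMP signals, averaged 14.6 CPM in TCDD D2 and 31.1 CPM in DMSO D2, while CXCR4 had a log2 fold change of 0.25, HHEX 0.01 and FOXA2 -0.15, and the list's median was -0.07. The endoderm sums, led by CER1 at D2, were 29.0 to 32.2 CPM in TCDD D2, 45.8 to 49.0 CPM in DMSO D2, 1.71 to 2.17 CPM in TCDD D1 and 1.78 to 3.96 CPM in DMSO D1. SOX17 had 0 or 1 count in each library and was not tested. Stem cell and early germ layer transcripts were thus present side by side at D2. In the pluripotent list 1 of 8 was higher at D2, SOX2 (0.59 ± 0.05, edgeR adjusted p = 1.32e-07). Fibroblast markers summed to 291 to 292 CPM in TCDD D2, 226 to 240 CPM in DMSO D2, 459 to 483 CPM in TCDD D1 and 424 to 425 CPM in DMSO D1, with COL1A1 the 1 of 3 tested that passed at D2 (0.54 ± 0.05, edgeR adjusted p = 3.59e-07) and LUM at 0 in every group. At D1 COL1A1 was again the 1 that passed, higher with TCDD by 0.2 on the log2 scale (edgeR adjusted p = 0.0356). COL1A1 is not restricted to fibroblasts, and which cells held it was not tested. Neuroectoderm sums were 34.0 to 40.2 CPM in TCDD D2, 32.5 to 38.1 CPM in DMSO D2, 38.0 CPM in TCDD D1 and 39.2 to 43.2 CPM in DMSO D1. Trophoblast and amnion sums were 1.85 to 2.09 CPM in TCDD D2, 1.17 to 1.50 CPM in DMSO D2, 11.2 to 11.6 CPM in TCDD D1 and 9.71 to 10.4 CPM in DMSO D1, with CGA at 0 in every group. The streak sum and the CER1-led sum were thus lower in the TCDD D2 than in the DMSO D2 libraries. The COL1A1-led sum, the stem cell sum and the low trophoblast and amnion sum were higher there. In the same TCDD D2 libraries PCDH10 and PCDH7 were lower and PCDH8 and PCDH18 higher. The part of these cell type markers in the protocadherin results was not tested.

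Genes linked to PCDH8 and PAPC in gastrulation or at the synapse were described beside it. Of 13 such genes, 1 was higher and 1 lower with TCDD at D2, with a median of -0.12. FZD7, a Wnt receptor that binds PAPC in Xenopus, was at 261 and 265 CPM in TCDD D2 and 190 and 192 CPM in DMSO D2, or 0.46 ± 0.07 on the log2 scale (edgeR adjusted p = 0.000638). N-cadherin, CDH2, was at 67.3 and 75.8 CPM in TCDD D2, 114 and 107 CPM in DMSO D2, 23.5 and 24.1 CPM in TCDD D1, and 33.4 and 31.3 CPM in DMSO D1. Its log2 fold change with TCDD was -0.63 ± 0.06 at D2 and -0.45 ± 0.07 at D1 (edgeR adjusted p = 3.69e-07 and 0.000548). PCDH8 was higher in the same libraries, but these values are RNA levels, and N-cadherin at the cell surface was not measured. Any link between CDH2 and PCDH8 was not tested.

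At D1, 1 of the 13 genes was higher and 1 lower, with a median of -0.01. LHX1, a homeobox factor that activates PAPC in Xenopus, rested on 26 and 26 counts in TCDD D1 and 5 and 9 in DMSO D1. Its log2 fold change of 1.87 ± 0.41 passed (edgeR adjusted p = 0.0215), was lost in 3 of 8 fits that left out 1 library each, and had no adjusted p from DESeq2. Those 3 fits were without TCDD D1 replicate 2, DMSO D1 replicate 1 or DMSO D1 replicate 2, and the value ran from 1.51 to 2.35 over the 8. At D2 LHX1 had 20 and 9 counts in TCDD D2 and 23 and 26 in DMSO D2, or -0.77 ± 0.35 on the log2 scale, which did not pass (edgeR adjusted p = 0.324). Its TCDD effect at D2 less that at D1 was -2.64 ± 0.54 (edgeR adjusted p = 0.0182), ranging from -3.21 to -2.28 over the same 8 fits. It passed in 3 of them and was lost without TCDD D2 replicate 2, TCDD D1 replicate 2, DMSO D1 replicate 1 or either DMSO D2 library. DESeq2 made no call on it, in a difference where 5 of the 13 genes got no adjusted p. PCDH8 was higher with TCDD at both times. The list of 13 somite and paraxial mesoderm genes, of which 9 were tested, held PCDH8 itself, so its passing there adds nothing. The other 8 tested did not pass with TCDD at D2 or D1. The list's median, PCDH8 included, was 0.24 at D2 and 0.18 at D1. The paraxial mesoderm factor TBX6, not past the threshold, had -0.12 ± 0.12 at D2 and 0.18 ± 0.11 at D1 (edgeR adjusted p = 0.728 and 0.599).

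None of 9 WAVE complex genes passed for TCDD at D2 or D1 by edgeR or DESeq2, with 1 and 0 of them at an unadjusted edgeR p under 0.05 and medians of 0.01 and 0.00. Between D2 and D1, 3 were higher and 3 lower with TCDD, and 3 were higher and 2 lower with DMSO. WASF3, an actin regulator, had 0.62 ± 0.05 with TCDD and 0.59 ± 0.05 with DMSO (edgeR adjusted p = 9.74e-10 and 2.69e-09). ABI2 had -0.34 ± 0.05 with TCDD and -0.41 ± 0.05 with DMSO (edgeR adjusted p = 1.77e-06 and 1.64e-07). NCKAP1, which encodes Nap1, had 0.21 ± 0.04 with TCDD and 0.31 ± 0.04 with DMSO (edgeR adjusted p = 0.000289 and 3.08e-06).

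A list of 6 genes for the binding partners of delta-1 proteins held 3 catalytic subunits of protein phosphatase 1, SET, SMAD3 and TAF1. TAF1 was listed in error, since the partner that goes by that name is template-activating factor 1, the product of SET. The 6 genes did not pass for TCDD at D2 by edgeR or DESeq2, with 0 of 6 at an unadjusted edgeR p under 0.05. At D1 SMAD3, a transducer of TGF-beta signals that binds PCDH1, was higher by 0.24 ± 0.05 (edgeR adjusted p = 0.0304), a call that DESeq2 did not make. Medians, TAF1 included, were 0.01 at D2 and 0.02 at D1. Between D2 and D1, 5 of the 6, all but TAF1, were higher and none lower by either tool, with TCDD and with DMSO, the phosphatase gene PPP1CA by 0.29 ± 0.05 and 0.17 ± 0.05 (edgeR adjusted p = 5.64e-05 and 0.0067).

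A list of 13 cadherins, the family's better known relatives, held mainly classical ones that link cells through catenins, and 11 were tested. CDH13, 1 of the 11, is an atypical cadherin and not a classical one. CDH2 was the 1 past the threshold with TCDD at either time, lower at both, and the list's median was 0.03 at D2 and -0.14 at D1. At D2 against D1, 6 were higher and 2 lower with TCDD, and 4 higher and 3 lower with DMSO (4 and 2 by DESeq2 in both), CDH1 (E-cadherin) among the higher by 0.76 ± 0.04 with TCDD and 0.74 ± 0.04 with DMSO (edgeR adjusted p = 4.66e-12 and 7.07e-12). Of 6 catenin genes, none passed with TCDD at either time by edgeR, with 2 at an unadjusted p under 0.05 at D2 and 1 at D1, while DESeq2 called CTNNA1 higher at D2 (edgeR 0.14 ± 0.04, adjusted p = 0.0746), a gene named here after its values were seen. The catenin medians with TCDD were 0.06 at D2 and 0.00 at D1.

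The 4 other non-clustered protocadherins, PCDH11X, PCDH12, PCDH15 and PCDH20, did not pass for TCDD at D2 or D1 by edgeR or DESeq2. At an unadjusted edgeR p under 0.05 there were 1 and 0, and DESeq2 gave no adjusted p to 1 of the 4 at each time. PCDH20 had 1.97 and 1.90 CPM in TCDD D2 and 2.98 and 2.48 CPM in DMSO D2, or -0.49 ± 0.18 on the log2 scale (edgeR adjusted p = 0.171). In GENCODE v29 its exons shared 4577 bases with another protein-coding gene on the same strand, and those of PCDH12 shared 108 bases with RNF14 on the opposite strand, so the counting of both is uncertain. PCDH12, a protocadherin of endothelial cells and placenta, was lower at D2 than at D1, by -0.77 ± 0.22 with TCDD and -0.81 ± 0.22 with DMSO on the log2 scale (edgeR adjusted p = 0.00474 and 0.00354), and DESeq2 made the DMSO call but not the TCDD one. PCDH11X was higher at D2, by 0.45 ± 0.11 with TCDD and 0.39 ± 0.11 with DMSO (edgeR adjusted p = 0.000905 and 0.00347), with the limit that a near-identical copy shares its reads. PCDH15, a protein of hair cell tip links, had -0.05 ± 0.38 with TCDD at D2 (edgeR adjusted p = 0.974) at 0.303 to 0.635 CPM per library. Their median with TCDD was -0.01 at D2 and -0.09 at D1.

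Among 53 clustered protocadherins tested, which give neurons their surface identity, none passed for TCDD at D2 or D1 by edgeR or DESeq2. At an unadjusted edgeR p under 0.05 there were 6 and 1, with medians of 0.05 and -0.05. DESeq2 gave no adjusted p to 8 of them at D2 and 3 at D1. Their summed level was 259 to 278 CPM in TCDD D2, 248 to 252 CPM in DMSO D2, 223 to 242 CPM in TCDD D1 and 238 to 243 CPM in DMSO D1. At D2 against D1, 14 were higher and 8 lower with TCDD, and 10 were higher and 8 lower with DMSO, with medians of 0.06 and -0.05. DESeq2 called 13 higher and 4 lower with TCDD, and 6 higher and 4 lower with DMSO. Neighbouring PCDHA genes, and neighbouring PCDHG genes, share their last exons, so the counting of their reads is uncertain.

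Genes most like each protocadherin were ranked by Pearson's r of log2 CPM over the 8 libraries, among 13453 genes that averaged 1 CPM or more. The libraries form 4 groups of 2, so r mainly follows the group means, and with so many genes some are alike in any data. PCDH8 was most like ADCY5 (0.969), KIAA0895 (0.964) and CSK (0.963), all lower in r than the leaders for PCDH10, LIN7A, RET and MYSM1 (0.999 each). KIAA0895 averaged 12.1 CPM in TCDD D2, 5.41 in DMSO D2, 6.34 in TCDD D1 and 3.69 in DMSO D1. The nearest to PCDH18 were QKI (0.982), NABP2 (0.981) and IFI35 (0.972). QKI, an RNA-binding protein gene, averaged 264 CPM in TCDD D2 and 249 CPM in DMSO D2. Shape and size of a difference are separate here, since r ignores scale. Among the genes nearest to PCDH7 were ADAMTS15 (0.992) and ZDHHC2 (0.989), and PCDH1 was closest to HTR3A, KLHL24 and PHC1 (0.999 each). For PCDH9 the leaders were B9D1 (0.993), TACR3 (0.992) and ASB13 (0.990), and for PCDH19 they were NCKAP5L (0.978), RAPGEF5 (0.974) and GPC1 (0.973). PCDH17 had the lowest leading values, for WNT9A (0.896), FAM162B (0.892) and ECSIT (0.878).

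The 8 genes lie on chromosomes 4 (PCDH7, PCDH10 and PCDH18), 5 (PCDH1), 13 (PCDH8, PCDH9 and PCDH17) and X (PCDH19). In GENCODE v29, exons of PCDH17 shared 654 bases, and exons of PCDH9 shared 144 bases, with a gene on the opposite strand. Whether counting used strand is not given in the sources used here, so the low counts of these genes could hold reads of their antisense partners.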

How the data were processed

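The deposited files hold the authors' raw read counts per gene symbol for each of the 8 libraries, with no normalization, as the whole-number values show. The submitters' processing notes name cutadapt 1.9.1, STAR, featureCounts 1.5.1 and the hg19 build. Neither the annotation, the strand setting nor the handling of multi-mapped reads is given in the sources used here. Groups came from the sample titles. Replicates differed by more than sampling noise (chi-square per gene 3.21 to 6.59, against 1 for noise alone). That does not show whether they were separate cultures. Each library was counted as a sample.

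Analyses used R 4.3.3 with edgeR 4.0.16 and limma 3.58.1. Low genes were removed with filterByExpr, TMM factors (0.958 to 1.04) set the scale of each library, and the 8 libraries shared 1 quasi-likelihood fit of the 4 group means, in which the biological coefficient of variation common to all genes was 3.86%. The F tests were two-sided, p-values were adjusted by Benjamini-Hochberg over 17268 genes, and the threshold was 0.05, and a standard error is the log2 fold change divided by the root of F. The pipeline was tested on simulated data. The alternatives were other scalings, no filter beyond 1 count, DESeq2 1.42.0, the replicate number as a block, leaving out each library, and a prior count of 0.5 in place of 2 for the likeness of patterns. One gene ranked by likeness is not reported here.

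The 8 genes and the gene lists were chosen with earlier results of these data known. The naming rule took the 8 genes, the 4 other non-clustered protocadherins, up to 4 genes with the smallest p among those past the threshold of each further list, up to 3 of a marker list, and the 3 genes most like each protocadherin, passing over uncharacterised and small RNA symbols. Flanking genes were the 2 nearest protein-coding genes of the count tables on each side in RefSeq order, kept only where they were tested. TBX6, PPP1CA, TAF1, CDH13, the endoderm markers beyond 3 and genes singled out at a count or at 0 were named after their values were seen. Promoter sequences came from RefSeq on GRCh38.p14 and exon lengths from GENCODE v29.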

Additional observations from a re-analysis of the deposited data

Results flagged for a closer look

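PCDH18 is listed because its change in TCDD effect between the days is past the threshold that sorts all genes. That change was 1.08 ± 0.08 on the log2 scale (the effect at D2 less the one at D1). PCDH18 averaged 110 CPM in TCDD D2, 54.3 CPM in DMSO D2, 48.6 CPM in TCDD D1 and 51.0 CPM in DMSO D1. The gene had been chosen from these libraries, so the difference is a description that supports nothing by itself, and its cause was not tested.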

How the results depend on the processing

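Every log2 fold change of the 8 genes in the 5 comparisons was recomputed under 13 other settings. Of these 520 values, 500 kept their direction and side of the threshold, 10 newly passed, 3 no longer passed, 7 changed sign without passing, and none that passed turned round. PCDH8 (2.17 to 2.62 at D2, 1.71 to 2.18 at D1), PCDH10 at D2 (-1.12 to -0.84), PCDH18 at D2 (0.93 to 1.10) and the PCDH18 difference of effects (1.00 to 1.17) passed in all 13. With no filter beyond 1 count, 2 of the 8 genes passed for TCDD at D1 and 3 for the difference of effects, PCDH7 and PCDH10 besides PCDH18. Leaving out 1 library gave 1 to 2 genes at D1. The cause of these changes was not tested. Over all genes, the unfiltered counts were 885 at D2, 480 at D1 and 433 for the difference, in place of 500, 197 and 142, and leaving out 1 library gave 214 to 654, 77 to 251 and 46 to 271. Same-numbered libraries deviated from their group means with correlations of -0.10 to 0.11, and the labels give no pairing, so numbers were not treated as pairs. The replicate block left 4 and 1 of the 8 genes past the threshold with TCDD at D2 and D1, 6 and 6 for D2 against D1 with TCDD and DMSO, and 1 for the difference. With 2 libraries a group, fits that leave out 1 assume that the lone library varies like the others. Another prior count left the 3 genes most like each protocadherin within the top 20. Depth limits PCDH9 and PCDH17 most, since PCDH9 had as few as 14 counts.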
